A study of Mus musculus with 4 samples.

Results

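The genes described here are 10 members of the hypoxia response and of lactate transport in E11.5 nasal process (NP) tissues of the mouse. They were taken from a table of 13577 genes by their symbols and by no measured value, though with earlier results of these data known. They are the α subunits of the hypoxia-inducible factors (*Hif1a* and *Epas1*), the prolyl hydroxylases that mark these subunits for destruction (*Egln1* and *Egln3*), targets of the factors (*Vegfa*, *Bnip3*, *Pdk1* and *Ankrd37*) and the monocarboxylate transporters MCT1 and MCT4 (*Slc16a1* and *Slc16a3*). All 10 were listed, all had only values that are whole numbers of reads, and all passed the filter on low values that left 12462 genes for testing. The study asks how glycolysis and lactate bear on these embryos, a question to which genes that answer to low oxygen and move lactate belong.

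Bulk RNA-Seq had been performed on 4 libraries, 2 titled control and 2 titled ca-*Acvr1* mutant. In the study's breeding scheme the mutants carry 1 floxed copy of a transgene for a constitutively activated BMP receptor, ca-*Acvr1* line A11, together with *P0-Cre*, which recombines it in neural crest cells, and the controls carry *P0-Cre* without the transgene, all on a mixed background. Epithelium, vessels and blood in the same dissected tissue lie outside that Cre's intended lineage. The genotype entries of the libraries contradict their titles, since they give the transgene to the libraries titled control and *P0-Cre* alone to those titled mutant. The titles were followed here. Were the genotype entries correct instead, each higher value would be a lower one. *Acvr1* itself did not settle this, and whether 3′ reads of the transgene fall on it was not tested. It was at 21.5 and 23.1 CPM in the controls, against 24.1 and 12.6 CPM in the ca-*Acvr1(A11)* pair (difference −0.33 in log2, limma adjusted p = 0.786), and the difference was 0.11 without ca-*Acvr1(A11)* replicate 2 and −0.77 without replicate 1.

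Values are CPM, the reads on a gene scaled to a fixed library total, and the libraries hold from 1956831 to 2408827 reads. A single read equals 0.415 to 0.511 CPM. The libraries were primed at the poly(A) tail, and a read is taken here to stand for a transcript's 3′ end whatever its length. Where the reads fall along transcripts was not tested. Nothing in the labels says whether the 2 libraries of a group came from separate embryos. The p-values measure only the spread between these libraries, and limma shares that spread across genes for its p-values and intervals. Markers of the tissue's cell types were not level between the groups. Of 16 mesenchyme markers, limma and edgeR each called 11 lower in ca-*Acvr1(A11)* libraries, and DESeq2 called 7. The sum of the list ran from 2150 to 2495 CPM in control and from 1178 to 1182 CPM in ca-*Acvr1(A11)* libraries. Epithelial markers summed to between 249 and 262 CPM in control and between 372 and 410 CPM in ca-*Acvr1(A11)* libraries, with 2 of 11 called higher, and neural markers to between 1469 and 1484 CPM and between 1842 and 1961 CPM, with 0 of 11 called by limma, edgeR or DESeq2 and 5 in limma at an unadjusted p under 0.05. Macrophage markers summed to between 52.6 and 54.6 CPM and between 88.8 and 130 CPM, with 2 of 10 called higher. DESeq2 called 0 markers in both the epithelial and the macrophage list, and limma called 0 epithelial markers without ca-*Acvr1(A11)* replicate 1 and 0 macrophage markers without replicate 2. Erythroid markers (9 tested) and muscle markers (4 tested) had 0 called and 0 at an unadjusted p under 0.05 in limma, and 0 called in DESeq2. In bulk tissue, fewer cells of a type and less RNA per cell cannot be told apart, and the part of these shifts in the values below was not tested.

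Cells read oxygen through the α subunits of HIF. When oxygen is present, the EGLN enzymes hydroxylate prolines of the subunits, the VHL ubiquitin ligase binds them and they are degraded. When oxygen is scarce, the subunits persist, pair with ARNT and bind a short core element in the DNA near genes that shift cells from respiration to glycolysis, bring in vessels and export lactate. Control of the α subunits is thus mostly at the protein, and the mRNA of their targets is the usual transcript readout. Midgestation embryos are naturally low in oxygen, and mouse embryos without HIF1α die at that stage with vascular defects and death of head mesenchyme.

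The core element can be read in the promoters of the members themselves, which is why 5 stretches of 100 bases are shown. A window from 250 bases before to 50 bases after each RefSeq start was searched on both strands for ACGTG and GCGTG, and 9 of the 10 members matched an entry. Capitals mark the core element or its reverse complement. The 5 genes were picked by hand. Each stretch was placed, within the 250 bases before the start, where it held the most matches away from its ends, so it is not a typical one. Of the matches before the start it shows 2 of 4 for *Ankrd37*, 4 of 5 for *Bnip3* and all for *Egln3*, *Slc16a1* and *Slc16a3*. *Slc16a1* has a further match after the start. RefSeq starts can lie inside the wider GENCODE gene given below. The first 3 genes are the hydroxylase and targets that HIF is known to induce, and the last 2 are the lactate transporters. All are in GRCm38.p6 and are written 5′ to 3′ along the gene's own strand, from chr12:54204025-54204124 (minus strand), chr8:45999940-46000039 (minus), chr7:138909550-138909649 (minus), chr3:104638445-104638544 (plus) and chr11:120948967-120949066 (plus).
Egln3: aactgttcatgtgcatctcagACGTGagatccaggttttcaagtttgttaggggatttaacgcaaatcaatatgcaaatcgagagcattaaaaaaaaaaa
Ankrd37: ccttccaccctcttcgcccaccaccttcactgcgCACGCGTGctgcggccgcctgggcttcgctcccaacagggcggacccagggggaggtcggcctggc
Bnip3: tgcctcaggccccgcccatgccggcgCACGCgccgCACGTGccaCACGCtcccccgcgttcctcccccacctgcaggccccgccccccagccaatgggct
Slc16a1: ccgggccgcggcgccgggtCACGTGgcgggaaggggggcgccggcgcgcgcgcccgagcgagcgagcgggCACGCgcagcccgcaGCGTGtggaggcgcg
Slc16a3: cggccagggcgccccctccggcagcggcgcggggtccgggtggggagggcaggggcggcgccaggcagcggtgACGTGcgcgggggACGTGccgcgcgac

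All 9 members held at least 1 of the motifs in at least 1 such window. Counted by window and not by gene, 61.6% of the 12605 windows of genes tested and 43.8% of all 32851 windows held one. The 12605 windows belong to 9798 genes, and the share of those genes with a match in any window was not computed. *Bnip3* and *Slc16a1* each held 5 matches, counting both strands of an overlapping CACGTG, the E-box that MYC and other factors also read, and *Ankrd37* held 4. *Vegfa* and *Pdk1* have 2 windows each, of which 1 held no match. A match is a description of letters and not of binding.

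None of the 10 members was called between the groups. The share of called genes among all genes tested was 0.899% (112 of 12462, limma on log2(CPM + 1), adjusted p under 0.05). At an unadjusted p under 0.05, which 9.55% of all genes tested met in limma, limma gave 2 members, *Egln3* and *Ankrd37*. At that threshold edgeR, run on whole reads recovered from the CPM, gave 1, *Egln3*, and DESeq2 and limma-voom gave 0, and none of these tools called a member with the adjustment. *Ankrd37* had too few reads to enter edgeR and limma-voom. The libraries of the groups did not overlap for 5 members, *Epas1*, *Egln3*, *Vegfa*, *Ankrd37* and *Slc16a1*, all higher in ca-*Acvr1(A11)*, and among all genes tested 21.9% were separated in that direction. The median log2 fold change of the 10 was 0.23, with 8 higher and 2 lower, beside a median of 0.03 over all genes. Without control replicate 1 the median was 0.44, and without control replicate 2 it was 0.15, with 7 higher and 3 lower.

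**Figure D1:**
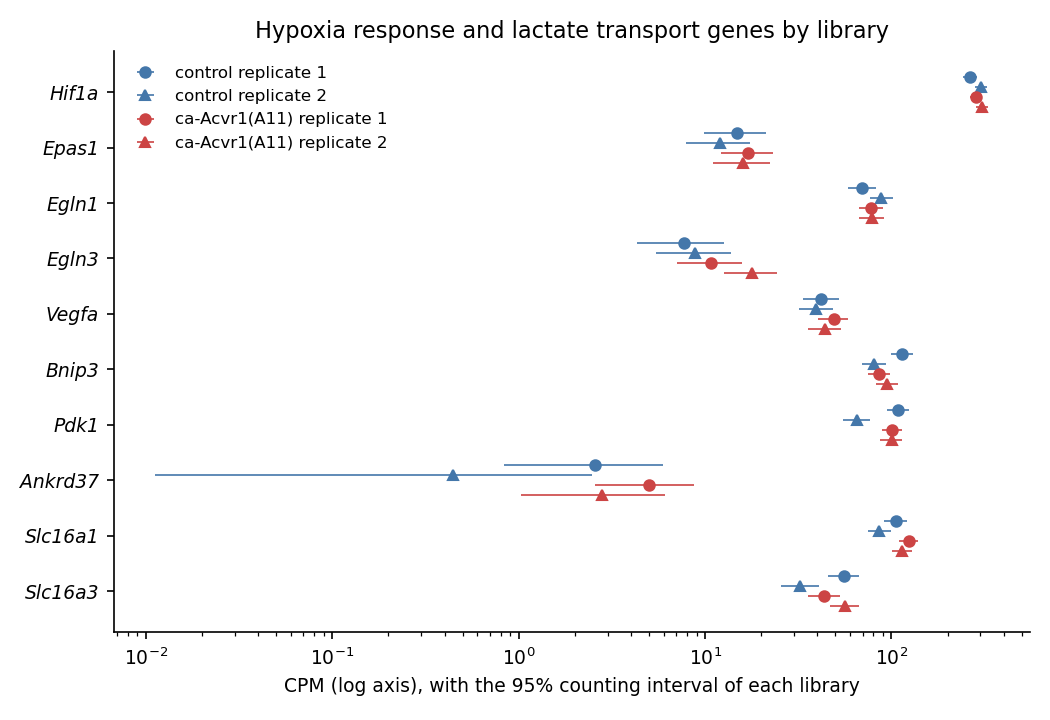
CPM of each member (rows, log axis) in the 4 libraries, control in blue and ca-*Acvr1(A11)* in red, with circles for replicate 1, triangles for replicate 2 and bars for the 95% counting interval of the single library. *Hif1a* lies near 300 CPM in each library, and *Ankrd37*, with 1 to 12 reads, has the widest intervals.

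*Hif1a* (Entrez 15251), on chromosome 12 of GRCm38 from 73901375 to 73947530, encodes the broadly expressed α subunit. It was at 263 and 302 CPM in the controls, against 284 and 306 CPM in the ca-*Acvr1(A11)* pair, from 515 to 683 reads each. The groups overlapped, and the lowest and the second highest value are both those of the controls. The log2 fold change was 0.06 (95% interval −0.22 to 0.35, limma adjusted p = 0.943), which leaves room for a fold between 0.858 and 1.27 of the control level. It is the narrowest interval of the 10, and *Hif1a* has the most reads of them and lies above 95.6% of all listed genes in its mean CPM. Its last exon, of 1979 bases, overlaps an annotated transcript of the other strand and one of its own strand, whose reads were not separated here.

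The study measured the same mRNA by qRT-PCR in NP tissues of an earlier embryonic stage, and with another part of the transcript. Its primers are shown because they lie far from the 3′ end that these libraries are taken to count. In lower case, both are written 5′ to 3′.
Hif1a forward: agcttctgttatgaggctcacc
Hif1a reverse: tgacttgatgttcatcgtcctc

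On GENCODE's transcript of 4724 bases they span 391 bases from position 554 in exon 2 (chr12:73926689-73926710) to position 944 in exon 5 (chr12:73930736-73930757), inside the coding sequence. The amplicon ends 3780 bases before the transcript's 3′ end. The last exon, number 15, holds 1830 bases of 3′ UTR, and reads primed at the poly(A) tail are taken to fall near its end.

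*Epas1* (Entrez 13819), on chromosome 17 from 86753700 to 86833410, encodes HIF2α, an α subunit known above all from endothelium. Its values were 14.8 and 12 CPM in the controls, against 17.0 and 15.9 CPM in the ca-*Acvr1(A11)* pair, from 27 to 41 reads. All ca-*Acvr1(A11)* values lay above the controls, by less than the counting error of any single library. The log2 fold change was 0.28 (95% interval −0.29 to 0.85, limma adjusted p = 0.833). Omitting control replicate 2 gave 0.14, and omitting the other control gave 0.43. Endothelial markers, given beside it, had 0 of 13 called by limma, edgeR or DESeq2, 0 at an unadjusted p under 0.05 in limma and sums of 178 and 203 CPM in the controls, against 192 and 184 CPM in the ca-*Acvr1(A11)* pair. Of the reads on the 2 α subunits, *Epas1* took between 3.82% and 5.66%, with exact binomial 95% intervals that run from 2.53% to 7.60% over the 4 libraries, and the shares of the groups overlapped.

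*Egln1* (Entrez 112405), on chromosome 8 from 124908587 to 124949324, encodes PHD2, the hydroxylase that sets HIF1α levels in normal oxygen. It was at 69.5 and 88.3 CPM in the controls, against 77.6 and 78.1 CPM in the ca-*Acvr1(A11)* pair. Both ca-*Acvr1(A11)* values lie between the controls, and the log2 fold change was −0.01 (95% interval −0.36 to 0.34, limma adjusted p = 0.992). No other member was as level between the groups.

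*Egln3* (Entrez 112407), on chromosome 12 from 54178981 to 54203860, encodes PHD3, a hydroxylase that HIF itself induces. It was at 7.67 and 8.88 CPM in the controls, against 10.8 and 17.8 CPM in the ca-*Acvr1(A11)* pair, or 15 and 20 against 26 and 38 reads. Both ca-*Acvr1(A11)* libraries were higher than both controls, and they lay nearly as far from each other as the groups did. The log2 fold change was 0.69 (95% interval 0.03 to 1.35), and it did not pass the adjustment over all genes (limma adjusted p = 0.496, edgeR 0.475). Summed over the libraries of a group, 64 reads against 35 are a ratio of 1.69 with a counting interval from 1.10 to 2.63, which covers counting error only. With single libraries left out the log2 fold change ran from 0.35 to 1.02. Of the reads on both hydroxylases, *Egln3* took 9.93% and 9.13% in control and 12.2% and 18.5% in ca-*Acvr1(A11)* libraries, and this share does not depend on how libraries are scaled. The exact binomial 95% interval of the highest share, 13.5% to 24.5%, overlaps those of both controls, which reach 15.9% and 13.8%. An exact permutation test of 2 libraries against 2 cannot give a p under 0.333.

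*Vegfa* (Entrez 22339), on chromosome 17 from 46016993 to 46032369, encodes the growth factor that draws in vessels. It was at 41.9 and 39.5 CPM in the controls, against 49.0 and 44.0 CPM in the ca-*Acvr1(A11)* pair. The groups were separated by a gap smaller than the counting interval of each library, and the log2 fold change was 0.19 (95% interval −0.21 to 0.58, limma adjusted p = 0.844). Without ca-*Acvr1(A11)* replicate 1 it was 0.11, the lowest with a single library left out, and the highest was 0.26. Its receptors *Kdr* and *Flt1* had log2 fold changes of −0.08 and 0.16 with overlapping groups (limma adjusted p = 0.943 and 0.914). The endothelial markers *Pecam1* and *Cdh5* had 0.21 and −0.14 (limma adjusted p = 0.850 and 0.913).

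*Bnip3* (Entrez 12176), on chromosome 7 from 138890836 to 138909519, encodes a mitochondrial receptor for mitophagy. It was at 114 and 80.8 CPM in the controls, against 85.9 and 95 CPM in the ca-*Acvr1(A11)* pair. The controls enclose both ca-*Acvr1(A11)* values, and the log2 fold change was −0.09 (95% interval −0.44 to 0.27, limma adjusted p = 0.934). *Pdk1* (Entrez 228026), on chromosome 2 from 71873224 to 71903858, encodes the kinase that shuts pyruvate dehydrogenase and so keeps pyruvate for lactate. It was at 108 and 65.3 CPM in the controls, against 101 and 100.1 CPM in the ca-*Acvr1(A11)* pair. Control replicate 2 stood below the other 3 libraries, and the log2 fold change was 0.25 (95% interval −0.13 to 0.64, limma adjusted p = 0.740). The result rests on the controls. Without control replicate 1 the log2 fold change of *Pdk1* was 0.62, and without control replicate 2 it was −0.11.

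*Ankrd37* (Entrez 654824), on chromosome 8 from 45996902 to 46005707, encodes a small ankyrin repeat protein known as a direct HIF1 target. It had 5 and 1 reads in control and 12 and 6 reads in ca-*Acvr1(A11)* libraries, which are 2.56, 0.444, 4.98 and 2.81 CPM. The groups were separated by 1 read, and the ratio of the summed reads, 18 against 6, was 2.78 with a counting interval from 1.06 to 8.55. The log2 fold change on log2(CPM + 1) was 1.07 (95% interval 0.04 to 2.11, limma adjusted p = 0.497), and with single libraries left out it ran from 0.42 to 1.72. Its last exon of 224 bases is overlapped on the other strand by *Ufsp2*, which was at 68.5 and 68.4 CPM in the controls, against 68.9 and 60.4 CPM in the ca-*Acvr1(A11)* pair, and whether the counting used strand is not given in the sources used here.

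The lactate transporters carry lactate and pyruvate across the membrane together with a proton, MCT1 in most cells and MCT4 mainly as an exporter of strongly glycolytic cells. *Slc16a1* (Entrez 20501), on chromosome 3 from 104638668 to 104658462, was at 105 and 86.1 CPM in the controls, against 124 and 114 CPM in the ca-*Acvr1(A11)* pair. Both ca-*Acvr1(A11)* values lay above the controls, and the log2 fold change was 0.32 (95% interval −0.01 to 0.64, limma adjusted p = 0.543, edgeR 0.549). As a ratio the interval runs from 0.994 to 1.56 of the control level. With single libraries left out the log2 fold change ran from 0.17 without control replicate 2 to 0.46 without control replicate 1.

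*Slc16a3* (Entrez 80879), on chromosome 11 from 120948480 to 120960868, was at 55.7 and 32.4 CPM in the controls, against 43.6 and 56.2 CPM in the ca-*Acvr1(A11)* pair. Its controls lay farther apart than the groups, and the log2 fold change was 0.21 (95% interval −0.24 to 0.67, limma adjusted p = 0.844). Of the reads on both transporters, *Slc16a3* took 34.6% and 27.3% in control and 26.1% and 33.0% in ca-*Acvr1(A11)* libraries, so that the balance of MCT4 to MCT1 transcripts overlapped between the groups. The transcripts of the partner proteins that carry these transporters to the membrane were listed too. *Bsg*, which lay lower in both ca-*Acvr1(A11)* libraries than in the controls, had a log2 fold change of −0.10 and *Emb*, which lay higher in both, of 0.29 (limma adjusted p = 0.907 and 0.584).

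**Figure D2:**
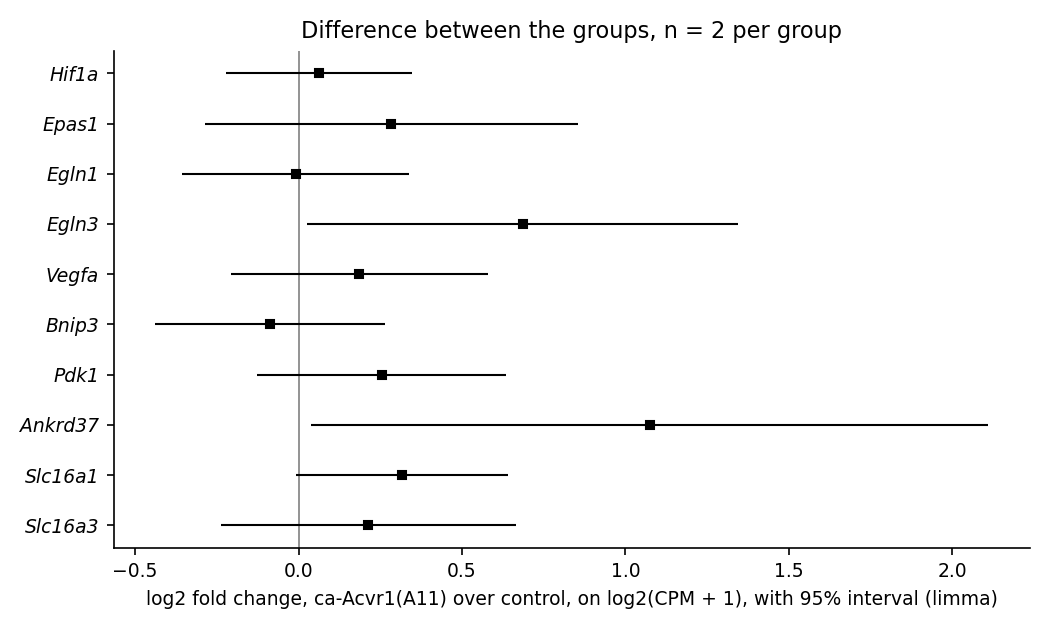
Log2 fold change of each member on log2(CPM + 1), ca-*Acvr1(A11)* over control (n = 2 per group), with the 95% interval from limma. The intervals of *Egln3* and *Ankrd37* begin at 0.03 and 0.04, those of the other 8 include 0, and no member passed the adjustment over all genes.

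The distance between replicates was often as large as that between the groups. For 7 of the 10 members one of the replicate pairs differed by more than the groups did, as was so for 74.4% of all genes tested. Control replicate 1 stood above control replicate 2 for each of the 4 members grouped as HIF targets, with log2 differences of 0.08 for *Vegfa*, 0.49 for *Bnip3*, 0.72 for *Pdk1* and 1.30 for *Ankrd37*. *Slc16a3* differed by 0.76 in the same direction, while *Hif1a*, *Egln1* and *Egln3*, which HIF also induces, differed by −0.20, −0.34 and −0.19. *Epas1* and *Slc16a1* differed by 0.28 and 0.29. In size, these gaps between the controls were at or above those of 88.6% of all genes tested for *Pdk1*, 89.6% for *Slc16a3*, 76.6% for *Bnip3*, 98.1% for *Ankrd37* and 17.9% for *Vegfa*. These shares take no account of depth. The *Ankrd37* gap is 5 reads against 1, a ratio of 5.76 with a counting interval from 0.644 to 272.

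In a list of other HIF targets that are not glycolytic enzymes, 22 of 30 were higher in control replicate 1 than in replicate 2 (73.3%), beside 49.8% of all genes, with a median log2 difference of 0.10 beside 0.00. The widest gaps, picked after their values were seen, ran in both directions. *Pfkfb4*, which makes a regulator of glycolysis, was at 7.15 CPM in control replicate 1 and 2.22 CPM in replicate 2, *Lox*, which crosslinks collagen, at 4.09 and 11.1 CPM, and *Ero1l*, an oxidase of the endoplasmic reticulum, at 24.5 and 11.1 CPM. Between the ca-*Acvr1(A11)* libraries 15 of the 30 were higher in replicate 1, with a median of 0.01. The controls differed in marker lists too. Of the mesenchyme markers 4 of 16 were higher in control replicate 1 (median −0.22), and of the erythroid markers 3 of 9 (median −0.21). Macrophage markers had 5 of 10 (−0.22), neural markers 4 of 11 (−0.07) and endothelial markers 6 of 13 (−0.01). Epithelial markers had 6 of 11 (0.03) and muscle markers 2 of 4 (0.17). The part of such differences in the gap of the HIF targets was not tested.

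**Figure D3:**
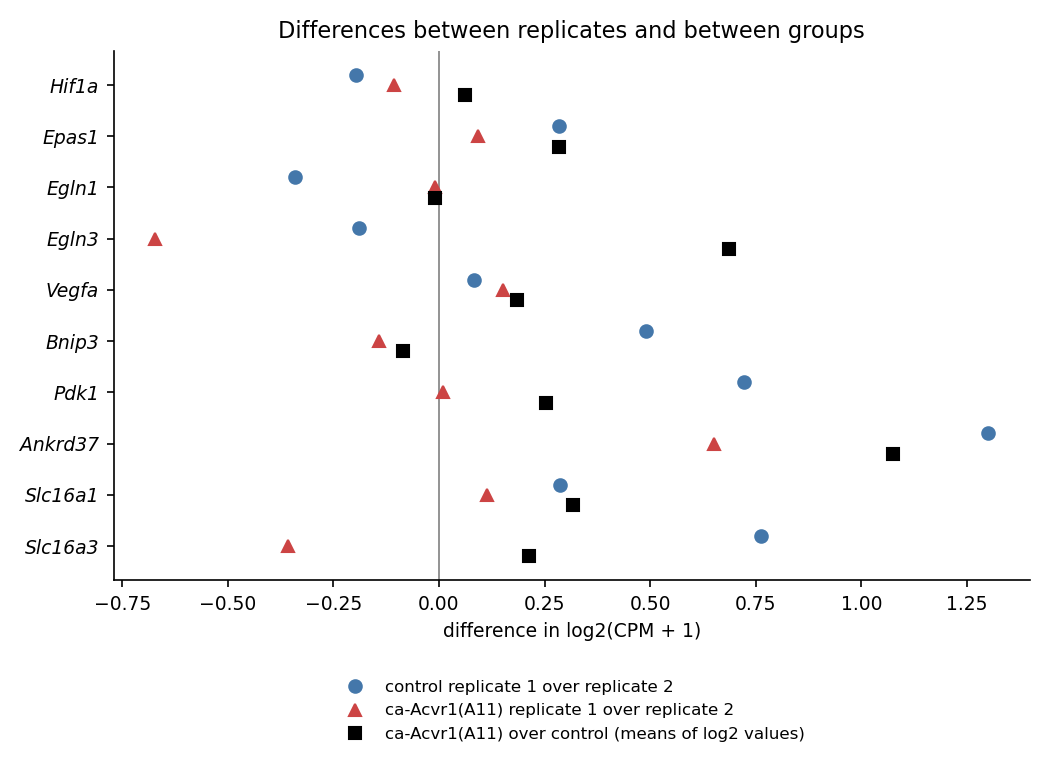
For each member, the difference in log2(CPM + 1) between control replicates (blue circles), between ca-*Acvr1(A11)* replicates (red triangles) and between the group means (black squares). For *Bnip3*, *Pdk1*, *Ankrd37* and *Slc16a3* the control replicates lie from 0.49 to 1.30 apart, more than the groups.

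The remaining genes of the pathway were read from lists compiled by hand. Of the HIF subunits and co-regulators, 11 of 13 were listed in the table, and 1 was called, *Cited2* (Entrez 17684), whose protein competes with HIF1α for the coactivators CBP and p300 and also serves TFAP2 factors as a coactivator. *Cited2* fell from 81.8 and 79.9 CPM in control to 48.2 and 44.0 CPM in ca-*Acvr1(A11)* libraries. The replicates lay close together and the groups far apart, with a log2 fold change of −0.80 (95% interval −1.16 to −0.44, limma adjusted p = 0.0164, edgeR 0.0119). DESeq2 did not call it (adjusted p = 0.198), nor did limma without ca-*Acvr1(A11)* replicate 2 (log2 fold change −0.74, adjusted p = 0.139), and over all alternatives the adjusted p ran from 0.00121 to 0.198. Beside it, all 16 mesenchyme markers had lower values, 11 called by limma and 7 by DESeq2. Their median log2 fold change was −0.99, and their part in the fall of *Cited2* was not tested. The median of the list of 11 was 0.00.

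Of the 30 other HIF targets tested, limma called 0, with 5 at an unadjusted p under 0.05, and edgeR and DESeq2 also called 0. Their median log2 fold change was 0.02, beside 0.03 over all genes, with 19 higher and 11 lower. The smallest p belonged to *Ddit4*, an mTORC1 inhibitor, at 65.4 and 55.9 CPM in the controls, against 83.9 and 86.6 CPM in the ca-*Acvr1(A11)* pair (difference 0.49 in log2, limma adjusted p = 0.274). *Car12*, a carbonic anhydrase at the cell surface, was at 28.1 and 28.0 CPM against 17.9 and 16.8 CPM (−0.66, limma adjusted p = 0.300). *Pfkfb3* had 0.75 (limma adjusted p = 0.300), and without control replicate 1 its log2 fold change was 1.20.

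The genes that make, use or admit pyruvate and lactate numbered 18 tested of 23, with 8 higher and 10 lower, a median of −0.06 and 0 called by limma, edgeR or DESeq2, and 5 at an unadjusted p under 0.05 in limma. *Pdha1*, the E1α subunit of pyruvate dehydrogenase and the protein that PDK1 phosphorylates, was at 226 and 190.0 CPM in the controls, against 272 and 339 CPM in the ca-*Acvr1(A11)* pair (difference 0.55 in log2, limma adjusted p = 0.0817). *Pdp2*, a phosphatase that opposes PDK1, had 0.65 (limma adjusted p = 0.336). The lactate dehydrogenase subunits went apart, with *Ldhb* at −0.48 (limma adjusted p = 0.236) and *Ldha*, a HIF target and the enzyme that makes lactate, at 0.35 (limma adjusted p = 0.448). Without control replicate 1 *Ldha* and *Pdha1* had 0.45 and 0.67, and without control replicate 2 *Ldhb* had −0.64.

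Among 8 further VEGF ligands and receptors, limma, edgeR and DESeq2 called 0, and 1 had an unadjusted p under 0.05 in limma, *Nrp2*, a semaphorin and VEGF co-receptor that is also found on neural crest cells. It was at 45.5 and 55.5 CPM in the controls, against 34.0 and 40.2 CPM in the ca-*Acvr1(A11)* pair (difference −0.43 in log2, limma adjusted p = 0.480). *Pgf* and *Vegfc* had −0.90 and −0.34 (limma adjusted p = 0.529 and 0.756), *Pgf* on fewer than 6 CPM in each library. The median of these 8 genes was −0.10, with 3 higher and 5 lower.

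**Figure D4:**
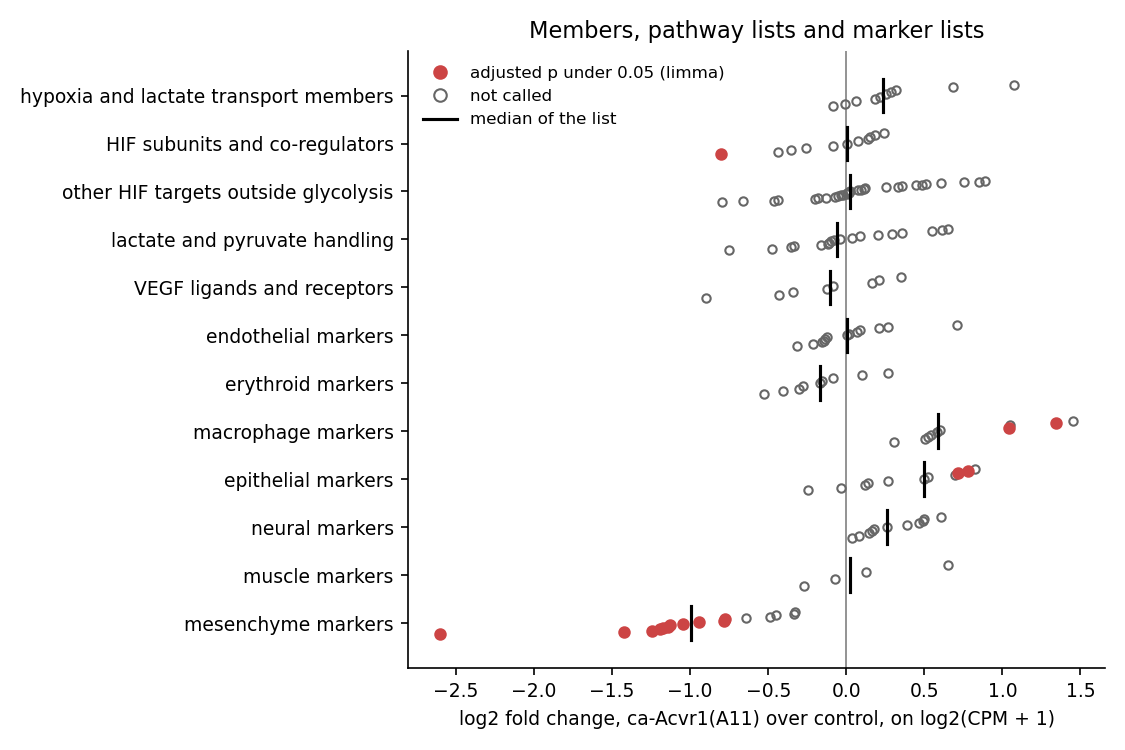
Log2 fold change of every tested gene (circles) of the members, of 4 pathway lists and of 7 marker lists, with filled red circles for genes called by limma and a black bar for the median of each list. The members and the pathway lists hold 1 called gene, *Cited2* at −0.80, and the mesenchyme list lies lowest with a median of −0.99.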

How the data were processed

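Analyzed were 4 libraries of E11.5 NP tissue, 2 per group of titles. The authors deposited CPM values, scaled to the total of each library, for 13577 genes. The submitters' processing notes name STAR, featureCounts 1.6.4, DESeq2 and mm10, without roles or settings. Library totals were found from the value of 1 read (tolerance 0.02 reads), and 99.9% of values were whole reads. The other 43, in 22 genes, include no member. They do include *Pdgfra*, one of the mesenchyme markers, in both ca-*Acvr1(A11)* libraries. With the nearest whole-read values limma called 11 mesenchyme markers lower. Left out were 33470 lines without a gene symbol and 0 value columns. The listed genes hold from 97.2% to 97.3% of each library's total.

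The main test was limma 3.58.1 (R 4.3.3) on log2(CPM + 1) with a mean-variance trend, restricted to genes whose mean exceeded 1 CPM, with Benjamini-Hochberg adjustment over all genes and a threshold of 0.05. edgeR 4.0.16 (quasi-likelihood), DESeq2 1.42.0 and limma-voom were run on the recovered reads as alternatives. Scripts were tested on simulated data. Intervals and counting intervals are 95% (exact Poisson or binomial). Coordinates are from GENCODE M21 (GRCm38, the assembly of mm10) and promoters from RefSeq. Python 3.11.15, scipy 1.17.1 and matplotlib 3.10.9 were used.

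The members and lists were chosen with earlier results of these data known. Genes named were every member, the genes called in a list or else its 3 smallest p, and fixed partner and marker genes. Groups follow the titles. Alternatives were another pseudocount, filter, scaling or test, the nearest whole-read values, a replicate block, and each library left out.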

Additional observations from a re-analysis of the deposited data

How the results depend on the processing

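Of the 10 members, 0 were called in the main setting and in every alternative that kept all 4 libraries. Without control replicate 1 the log2 fold change of *Pdk1* was 0.62. Under each other pseudocount, filter, scaling, test and the block the members that could be fitted kept their signs (9 of 10, without *Ankrd37*, in edgeR, limma-voom and the filter of 10 reads), while with a single library left out *Hif1a*, *Egln1*, *Bnip3*, *Pdk1* and *Slc16a3* changed sign. Over all genes, 112 were called (38 higher, 74 lower). With single libraries left out the count ran from 94 to 462 (32 to 241 higher, 56 to 221 lower), in the members from 0 to 1, in the HIF subunits and co-regulators from 0 to 1 (0 without ca-*Acvr1(A11)* replicate 2), in the other HIF targets from 0 to 2 (*Pfkfb3* and *Ero1l* without control replicate 1) and in the lactate and pyruvate genes from 0 to 2. On the recovered reads edgeR called 128 genes and limma-voom 121. DESeq2 called 36 genes, 7 higher and 29 lower, and 0 HIF subunits and co-regulators. With the replicate block, 229 genes were called, 97 higher and 132 lower, with 0 members and 1 lactate and pyruvate gene, *Pdha1* (limma adjusted p = 0.0156). The titles give no more than the number, the deviations of same-numbered libraries correlated at 0.067, and 2 pairs are too few to tell whether the numbers pair the libraries. Depth limits *Ankrd37* and *Egln3* most, with 24 and 99 reads in all.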
